A study of Homo sapiens with 12 samples.

Results

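DKK1, an extracellular antagonist of WNT signalling, was described together with 9 other genes of that pathway in pancreatic cancer cells in which focal adhesion kinase (FAK) had been knocked down. The other 9 were DKK3, WNT5A, FZD7, LRP6, CTNNB1, AXIN2, LEF1, TCF7 and TCF7L2. Members were taken by gene name from the deposited array table, with every probe of each gene, which gave 10 of 34599 gene names and 27 of 47228 probes. DKK1 was chosen by its fall in the arrays with FAK hairpins against the control hairpin, so its values in those comparisons are given as a description with no test. The other 9 genes were named as partners of DKK1 in the same pathway. They were named with earlier results of these data known, so their tests are not independent of that knowledge. Of the 27 probes, 13, from 8 genes, passed the filter on dim signal.

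Illumina HumanHT-12 v4 bead arrays had been run on MIA PaCa-2 and Capan-1, both established lines of human pancreatic ductal adenocarcinoma. Each line carried a puromycin-resistance vector (PLKO.1 tet-on) from which doxycycline switches on a short hairpin RNA, and the hairpin was either a scrambled control (shCtrl) or 1 of 2 directed against FAK (sh1209 and sh1319). All 6 groups, shCtrl included, were induced over 96 hours (doxycycline at 50 ng/ml) under puromycin, which MIA PaCa-2 received at 3.5 ug/ml while the dose in Capan-1 was 1.5 ug/ml. Each group had 2 arrays, and 1 chip held all 12. Whether a pair came from separate cultures is stated in neither labels nor methods, so a p-value here measures the spread between arrays, which may be technical. The sh1319 hairpin is written shFAK1319 in the Capan-1 labels and was read as the same hairpin. Both hairpins of a line were compared with the same pair of shCtrl arrays, so those comparisons are not independent of each other.

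The median deposited intensity of an array was 87.7 to 97.0, and 16259 to 19814 of 47228 probes were detected (detection p under 0.05, against negative control beads). Epithelial keratins KRT8 and KRT18 were detected on all arrays. The epithelial genes CDH1 and EPCAM were detected on all 6 Capan-1 arrays, but on 0 and 2 of the 6 MIA PaCa-2 arrays, and KRT19 on 6 and 4. VIM was detected on all 12 arrays, at 8839 to 11674 in MIA PaCa-2 and 120 to 175 in Capan-1, while ZEB1, PDGFRA, PDGFRB, CDH5, KRT5 and KRT14 were not detected on any array. Other fibroblast, leukocyte and endothelial markers were seen on some arrays close to background, CD14 on 5 MIA PaCa-2 and 1 Capan-1 arrays (87.9 to 105), PECAM1 on 2 and 5 (87.6 to 129.8), LUM on 0 and 2, DCN on 0 and 1, and COL1A1 and PTPRC on 1 and 0. Their part in the results was not tested.

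WNT proteins bind a Frizzled receptor and the co-receptor LRP5 or LRP6 at the cell surface. This halts the complex of AXIN, APC and GSK3 that marks β-catenin for destruction, and β-catenin then enters the nucleus and works with TCF/LEF factors bound to DNA. Several genes switched on in this way encode brakes on the pathway: DKK1 occupies LRP6, and AXIN2 rebuilds the destruction complex. Mutations of the pathway are a hallmark of colorectal cancer, whereas pancreatic ductal cancers more often depend on secreted WNT ligands or their receptors.

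DKK1 has 2 probes, of which 5570102 was detected on all 12 arrays and the other on 4. The RefSeq promoter of DKK1 (GRCh38.p14, chr10:52314031-52314330, plus strand, 250 bases before to 50 after the start of the gene) is shown because DKK1 is itself a known target of β-catenin. Capitals mark matches to a TCF/LEF word. The words searched, on both strands, were CTTTGAA and CTTTGTT as well as CTTTGAT and then CTTTGTA:

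DKK1: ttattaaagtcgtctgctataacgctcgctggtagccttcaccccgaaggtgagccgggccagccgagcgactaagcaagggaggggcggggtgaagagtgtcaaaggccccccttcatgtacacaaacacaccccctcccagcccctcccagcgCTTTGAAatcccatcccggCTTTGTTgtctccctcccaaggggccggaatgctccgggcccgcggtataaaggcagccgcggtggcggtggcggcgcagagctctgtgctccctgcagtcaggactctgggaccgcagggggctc

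The 2 matches begin 95 and 76 bases upstream of the start and do not overlap. At least 1 of the 4 words was present in 13.8% of 35116 RefSeq promoters of the same length, and 2 or more matches in 1.58%. Of the 10 promoters listed for 6 of the members, 3 held a match: that of DKK1, 1 of 2 for TCF7 and 1 of 3 for TCF7L2. A match describes the letters and does not show binding.

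DKK1 was lower with either FAK hairpin than with shCtrl in both lines. The deposited intensity of probe 5570102 on the 2 MIA PaCa-2 arrays was 716 and 644 with shCtrl, 96.4 and 99.8 with sh1209, and 139.8 and 181 with sh1319. On the Capan-1 arrays it was 768 and 794 with shCtrl, 261 and 333 with sh1209, and 498 and 621 with sh1319. Every array with a FAK hairpin lay below both shCtrl arrays of its line, and in each line the 2 sh1209 arrays lay below the 2 sh1319 arrays.

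After background correction and quantile normalization, MIA PaCa-2 had a DKK1 log2 level of 9.33 ± 0.003 under shCtrl, 4.87 ± 0.21 under sh1209 and 6.45 ± 0.19 under sh1319 (mean ± SD, n = 2 arrays each). For Capan-1 the levels, in that order, were 9.58 ± 0.06, then 7.58 ± 0.001 and finally 8.79 ± 0.01 (mean ± SD, n = 2 arrays each). Against shCtrl this made log2 differences of -4.46 (sh1209) and -2.88 (sh1319) for MIA PaCa-2, while for Capan-1 they were -2.005 and -0.80, each with a standard error of 0.13. DKK1 thus stood at 4.54% and 13.6% of its shCtrl level in MIA PaCa-2 and at 24.9% and 57.6% in Capan-1. Over both hairpins the log2 difference was -3.67 in MIA PaCa-2 and, for Capan-1, -1.40, and over both lines -2.53. These sizes depend on how background is removed: without background correction the value for sh1209 in MIA PaCa-2 was -2.82, and the combined value -1.84. In RNA from a whole culture, fewer cells with the transcript and less of it per cell cannot be told apart.

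The comparison of the 2 FAK hairpins did not choose DKK1 and was tested. DKK1 was lower with sh1209 than with sh1319 in MIA PaCa-2, with a log2 difference of -1.58 (95% interval -1.88 to -1.29, limma adjusted p = 7.2e-06), and in Capan-1, by -1.21 (-1.50 to -0.92, limma adjusted p = 0.00016). The size for MIA PaCa-2 also depended on the background step, at -0.66 without background correction and -0.95 with a larger offset, where Capan-1 had -0.96 and -1.08, all of them called. Between the lines with shCtrl the difference was -0.25 (MIA PaCa-2 minus Capan-1, -0.54 to 0.04, limma adjusted p = 0.16), with adjusted p = 0.013 without background correction and 0.031 with a larger offset.

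The targeted gene, PTK2, did not follow the same order of hairpins. The intensity of PTK2 probe 450253 in MIA PaCa-2 was 773 and 708 with shCtrl, 192 and 212 with sh1209, and 175 and 219 with sh1319. In Capan-1 it was 1221 and 1178 with shCtrl, 821 and 1057 with sh1209, and 419.6 and 533 with sh1319. PTK2 in MIA PaCa-2 differed from shCtrl by -2.24 (sh1209, limma adjusted p = 1.5e-07) and -2.48 (sh1319, limma adjusted p = 5.2e-08) on the log2 scale, and in Capan-1 under sh1319 by -1.78 (limma adjusted p = 5.9e-06). With sh1209 in Capan-1 it fell by 0.61 (limma adjusted p = 0.0036), a call that was lost when arrays were scaled to their medians (-0.42, limma adjusted p = 0.23).

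In Capan-1, therefore, the hairpin that left more PTK2 message had the lower DKK1. The PTK2 level there was higher with sh1209 than with sh1319 by 1.16 (0.91 to 1.41, limma adjusted p = 6.2e-05), whereas the DKK1 level was lower with sh1209. In MIA PaCa-2 the PTK2 difference between hairpins was 0.24 (-0.01 to 0.49, limma adjusted p = 0.17). The second PTK2 probe, 2680750, was dim, at 98.6 to 140.7 on all arrays. Its log2 differences from shCtrl were 0.31 and -0.29 for MIA PaCa-2 and -0.46 with each hairpin for Capan-1, none of them called. Over both hairpins this probe was called lower in Capan-1 (-0.46, limma adjusted p = 0.046) and not in MIA PaCa-2 (0.01, limma adjusted p = 0.98). Its 2 knockdown groups in MIA PaCa-2 differed, sh1209 above sh1319, a log2 difference of 0.59 (limma adjusted p = 0.021), a call that was lost without sh1209 replicate 1 (0.49, limma adjusted p = 0.13) or without sh1319 replicate 2 of MIA PaCa-2 (0.37, limma adjusted p = 0.18).

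**Figure D1:**
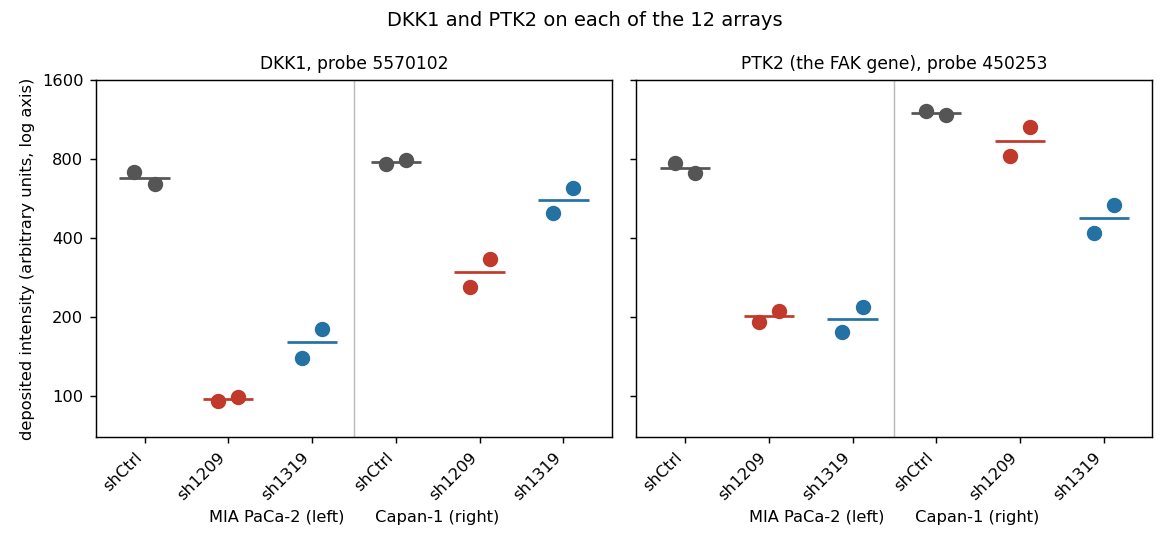
Deposited intensity (log axis, arbitrary units) of DKK1 probe 5570102 on the left and of PTK2 probe 450253 on the right, with 1 point for each of the 12 arrays and a bar at the mean of the 2 arrays of a group. DKK1 was lowest with sh1209 in both lines (96.4 and 99.8, and 261 and 333), while PTK2 in Capan-1 was lowest with sh1319 (419.6 and 533). Intensities of the 2 probes cannot be compared with each other.

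The second DKK1 probe, 4880609, lay close to background at 77.3 to 114.8 and was detected on 4 of 12 arrays. It was detected on 1 of 2 shCtrl arrays and 0 of 4 knockdown arrays in MIA PaCa-2. In Capan-1 it was detected on both shCtrl arrays, on neither sh1209 array and on 1 sh1319 array. Its log2 differences from shCtrl were -0.86, -0.77, -0.43 and -0.03 in the order used above.

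Several of the other members were at or near background. WNT5A, a ligand of β-catenin-independent signalling, has 1 probe, which was not detected on any array (75.1 to 87.4). TCF7, a TCF/LEF factor, has 6 probes, of which 4 were never detected and 2 were detected on 1 array each. DKK3, a divergent relative of DKK1, has 4 probes, and only 3130681 was detected, on 3 arrays, with log2 differences from shCtrl of -0.01 to 0.38 and no call. For WNT5A and TCF7 no change could be measured at this signal.

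**Figure D2:**
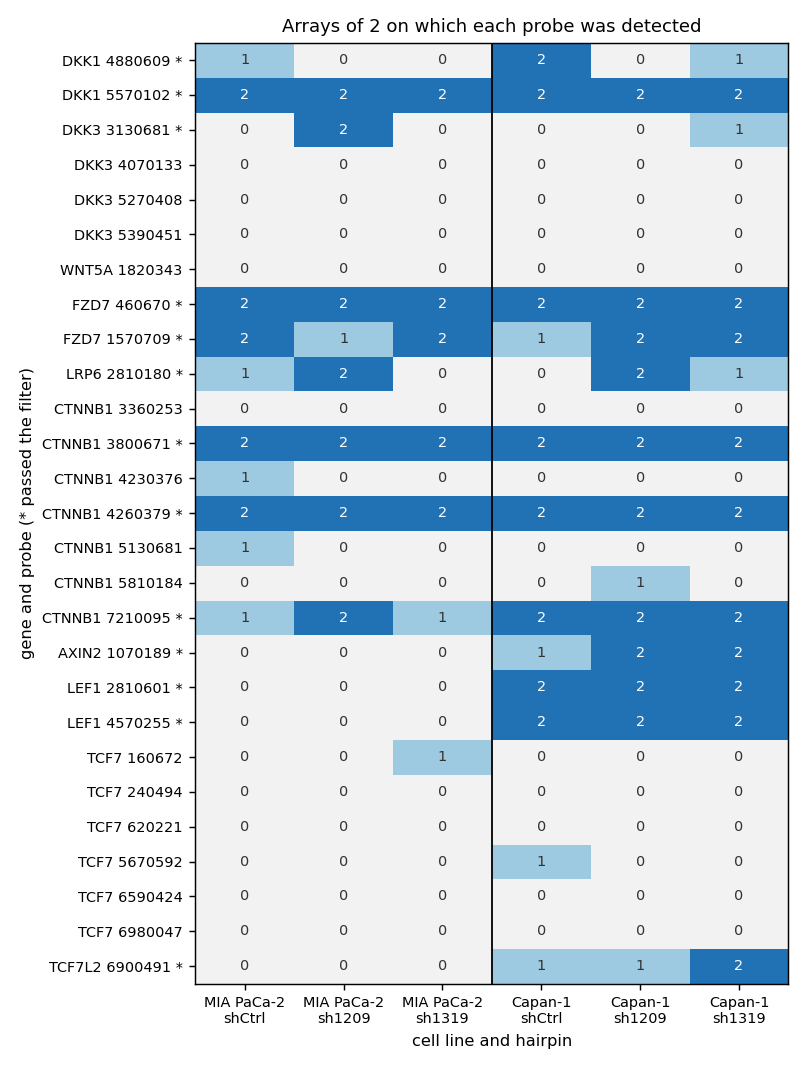
Number of arrays, of 2 in each group, on which each of the 27 probes was detected (detection p under 0.05). An asterisk marks the 13 probes that passed the filter. Both LEF1 probes were detected on all 6 Capan-1 arrays and on 0 of 6 MIA PaCa-2 arrays, and the 2 DKK1 probes differed in detection from each other.

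AXIN2, the destruction complex scaffold that serves as the usual readout of β-catenin activity, rose in Capan-1 with both hairpins. Its probe, 1070189, read 88.3 and 97.7 with shCtrl in Capan-1, 114.6 and 140.7 with sh1209, and 116.3 and 143.5 with sh1319. In MIA PaCa-2 it read 90.3 and 92.3, 88.7 and 97.8, and 87.4 and 97.5 in the same order of hairpins. All 4 Capan-1 knockdown arrays lay above every other array of the series, and 0 of 6 MIA PaCa-2 arrays and 1 of 2 Capan-1 shCtrl arrays detected the probe.

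The log2 rise of AXIN2 in Capan-1 was 0.97 with sh1209 (0.67 to 1.27, limma adjusted p = 0.00063) and 0.94 with sh1319 (0.64 to 1.24, limma adjusted p = 0.0011). Over both hairpins it was 0.96 (limma adjusted p = 0.00028), against 0.02 (-0.24 to 0.29, limma adjusted p = 0.92) in MIA PaCa-2. The difference between the lines in this change was tested directly and was -0.93 (MIA PaCa-2 minus Capan-1, -1.30 to -0.56, limma adjusted p = 0.0035). The 2 hairpins did not differ detectably in Capan-1 (0.03, -0.27 to 0.33, limma adjusted p = 0.94), although DKK1 and PTK2 both differed between them. The probe passed the filter through 5 Capan-1 arrays, 4 of them with a FAK hairpin, and with no filter on the array the adjusted p by limma was 0.00088 with sh1209, 0.0014 with sh1319 and 0.0043 for the difference between the lines. With a probe at background in MIA PaCa-2, a change below the detection limit could not be seen there.

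LEF1, the TCF/LEF factor whose own gene is a β-catenin target in many tissues, was detected only in Capan-1. Its promoter in RefSeq (GRCh38.p14, chr4:108166252-108166551, minus strand) is shown beside that of DKK1 because LEF1 is the one other member with a listed promoter and a call in a knockdown comparison. The window has the same size as that of DKK1 but surrounds the one start that the table lists for LEF1, which lies inside the gene as RefSeq spans it (chr4:108047548-108168932) and not at its 5′ end. It held none of the 4 words:

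LEF1: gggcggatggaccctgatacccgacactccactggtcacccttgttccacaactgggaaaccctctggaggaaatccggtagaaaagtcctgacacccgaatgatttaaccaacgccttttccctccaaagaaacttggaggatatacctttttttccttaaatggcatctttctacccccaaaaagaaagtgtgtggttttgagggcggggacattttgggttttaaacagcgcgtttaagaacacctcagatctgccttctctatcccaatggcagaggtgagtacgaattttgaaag

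LEF1 probe 4570255 read 108.6 and 120.2 with shCtrl in Capan-1, 104.7 and 120.2 with sh1209, and 99.9 and 109.2 with sh1319, so the deposited intensities of the groups overlapped. In MIA PaCa-2 it read 76.0 to 92.0. After normalization the log2 difference in Capan-1 was -0.64 with sh1319 (-0.89 to -0.40, limma adjusted p = 0.0029) and -0.31 with sh1209 (-0.56 to -0.07, limma adjusted p = 0.081), and over both hairpins -0.48 (limma adjusted p = 0.0057). The fall over both hairpins was lost with median scaling (-0.36, limma adjusted p = 0.2) and without Capan-1 shCtrl replicate 2 (-0.39, limma adjusted p = 0.082), and that with sh1319 was lost with median scaling (-0.56, limma adjusted p = 0.073).

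The second LEF1 probe, 2810601, gave -0.26 and -0.32 in Capan-1 (limma adjusted p = 0.43 and 0.33). It read 100.6 to 123.9 there and 84.1 to 96.7 in MIA PaCa-2. With shCtrl, MIA PaCa-2 had LEF1 at a level at least 1.64-fold lower than that of Capan-1 by probe 4570255 and at least 1.53-fold lower by probe 2810601. Both probes passed the filter through Capan-1 arrays alone, and with no filter the adjusted p of this difference by limma was 2.5e-06 and 0.0023. TCF7L2, the TCF factor most tied to intestinal WNT output, was likewise detected on 4 of 6 Capan-1 arrays and 0 of 6 MIA PaCa-2 arrays, but at 85.6 to 109.1 its difference between the lines was -0.14 (limma adjusted p = 0.45), and its changes with the 4 hairpin and line pairs were -0.14 to 0.12 with no call.

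Of the receptors, FZD7 gave opposite calls in the 2 lines by one of its probes. FZD7 is a Frizzled receptor that can signal through β-catenin. Probe 1570709 read 122.2 and 118.1 with shCtrl in MIA PaCa-2, 86.5 and 104.1 with sh1209, and 105.2 and 123.6 with sh1319. In Capan-1 it read 98.0 and 90.1, 109.7 and 142.0, and 121.4 and 140.2. The knockdown arrays lay above both shCtrl arrays in Capan-1, and in MIA PaCa-2 the sh1319 arrays overlapped shCtrl.

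The log2 difference of this probe was -1.17 with sh1209 (-1.65 to -0.69, limma adjusted p = 0.0033) in MIA PaCa-2, where sh1319 gave -0.45 (limma adjusted p = 0.17). In Capan-1 it rose by 0.81 (0.33 to 1.30, limma adjusted p = 0.025) and 0.89 (0.41 to 1.37, limma adjusted p = 0.019). The difference between the lines was -1.66 (-2.25 to -1.07, limma adjusted p = 0.0018). The Capan-1 calls were lost without shCtrl replicate 2 (0.53 and 0.61, limma adjusted p = 0.22 and 0.17), that for sh1209 without its replicate 2 (0.63, limma adjusted p = 0.18), and that for sh1319 without its replicate 1 (0.91, limma adjusted p = 0.081) or replicate 2 (0.84, limma adjusted p = 0.098). The MIA PaCa-2 value over both hairpins, -0.81 (limma adjusted p = 0.0098), was lost without shCtrl replicate 1 (-0.77, limma adjusted p = 0.069).

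The other FZD7 probe, 460670, was detected on all 12 arrays at 102.9 to 125.9 and disagreed. Its log2 differences were 0.42 and 0.24 in MIA PaCa-2, and for Capan-1 0.01 and -0.26, none of them called, and its difference between the lines was 0.45 (-0.16 to 1.07, limma adjusted p = 0.33). The array table does not settle which probe reports the gene. With shCtrl, probe 1570709 was higher in MIA PaCa-2 with a log2 difference of 1.22 (limma adjusted p = 0.00071) and probe 460670 differed by -0.11 (limma adjusted p = 0.74). LRP6, the co-receptor that DKK1 occupies, was dim at 88.9 to 103.1, was detected on 6 of 12 arrays, and had log2 differences of -0.19 to 0.19 with no call.

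CTNNB1, which encodes β-catenin, was steadily detected and showed no call in any knockdown comparison. Probe 4260379 read 171 and 172 with shCtrl in MIA PaCa-2, 167 and 194.5 with sh1209, and 183 and 244 with sh1319, and in Capan-1 it read 207 and 227, 242 and 286, and 217 and 307.5. Over both hairpins its log2 difference was 0.18 (-0.08 to 0.43) in MIA PaCa-2 and 0.06 (-0.20 to 0.32) in Capan-1, and probe 3800671 gave 0.21 (-0.14 to 0.55) and 0.06 (-0.28 to 0.41). Probe 7210095 was dimmer, at 92.6 to 113.1, with no call, and the other 4 CTNNB1 probes did not pass the filter. With shCtrl, CTNNB1 was lower in MIA PaCa-2 by probe 3800671 (-0.56, limma adjusted p = 0.026) and not by probe 4260379 (-0.36, limma adjusted p = 0.051). The first call was lost without either MIA PaCa-2 shCtrl array (-0.50 and -0.61, limma adjusted p = 0.11 and 0.056) or either Capan-1 shCtrl array (-0.59 and -0.52, limma adjusted p = 0.073 and 0.11).

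**Figure D3:**
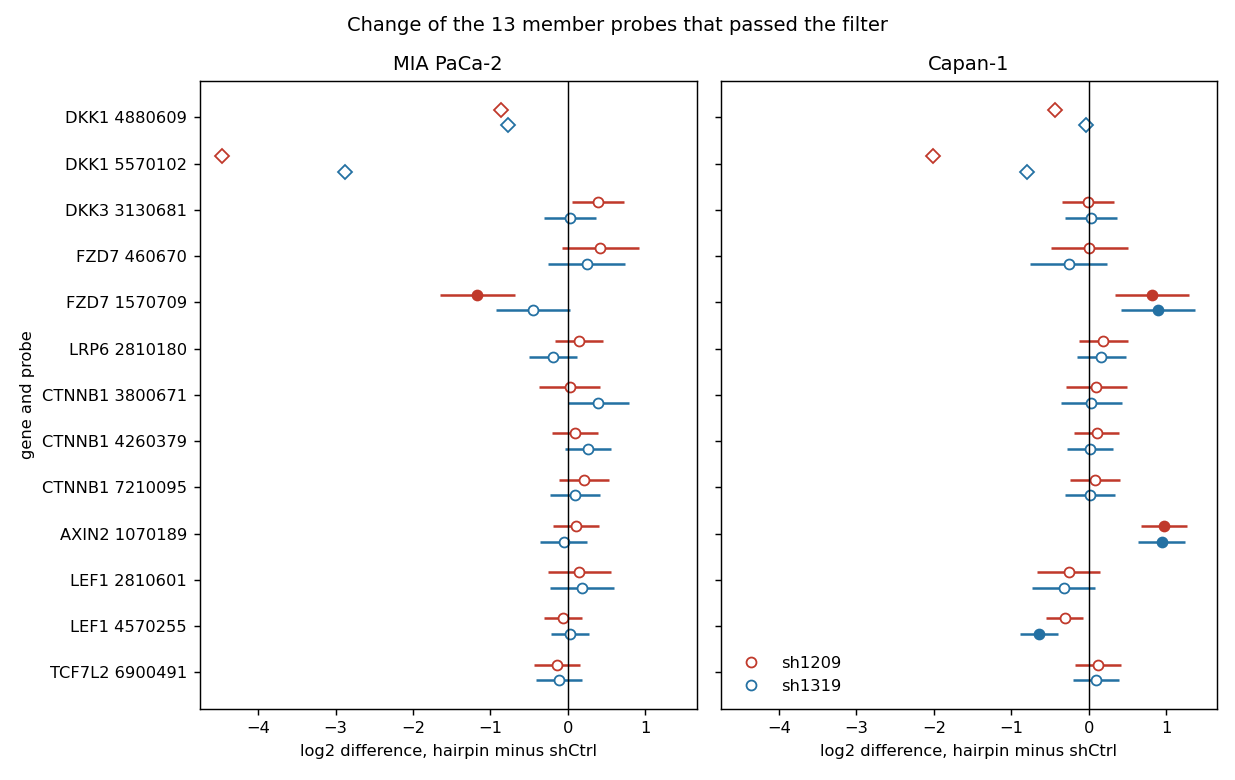
Log2 difference of each member probe from shCtrl (horizontal axis) with 95% intervals, for sh1209 and sh1319 in MIA PaCa-2 and Capan-1. Filled symbols passed the limma test at an adjusted p of 0.05, and diamonds are the DKK1 probes, which were not tested and have no interval. DKK1 probe 5570102 lay at -4.46 to -0.80, AXIN2 at 0.97 and 0.94 in Capan-1, and the 3 CTNNB1 probes at 0.02 to 0.39, none of them called.

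Counted over the 11 tested probes of the 9 members other than DKK1, 1 was called in MIA PaCa-2 with sh1209 (18% of all 24207 tested probes were called) and 0 with sh1319 (24.3%), where limma gave 0 at an unadjusted p under 0.05. In Capan-1, 2 were called with sh1209 (16.8%) and 3 with sh1319 (13.7%). Over both hairpins, MIA PaCa-2 had 1 call (21.2%) and Capan-1 had 3 (16.5%). Over both lines there were 2 (25.2%), AXIN2 at 0.49 (limma adjusted p = 0.0013) and LEF1 at -0.25 (limma adjusted p = 0.02). Neither probe was detected on any MIA PaCa-2 array, and the AXIN2 value averages 0.96 in Capan-1 and 0.02 in MIA PaCa-2. With no filter the adjusted p by limma was 0.0017 for AXIN2 and 0.0095 for LEF1. The LEF1 value was lost without MIA PaCa-2 shCtrl replicate 2 (-0.25, limma adjusted p = 0.055) or Capan-1 shCtrl replicate 2 (-0.20, limma adjusted p = 0.095).

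The change differed between the lines for 3 of the 11 probes (14.4%), those of AXIN2, FZD7 and LEF1. The LEF1 difference, 0.46 (limma adjusted p = 0.044), was lost when any 1 of the 12 arrays was left out (0.37 to 0.54), as well as with median scaling (0.34, limma adjusted p = 0.5). The median log2 difference of the 11 probes over both hairpins was 0.15 in MIA PaCa-2 and, for Capan-1, 0.06, against 0.00 for all tested probes in either line. Over all 13 probes, the hairpins differed in MIA PaCa-2 for 2 (22.6%), DKK1 and FZD7, and in Capan-1 for 1 (11.3%), DKK1. The FZD7 difference between hairpins, -0.72 (limma adjusted p = 0.035), was lost without MIA PaCa-2 sh1209 replicate 1 (-0.44, limma adjusted p = 0.26), sh1319 replicate 1 (-0.88, limma adjusted p = 0.051) or sh1319 replicate 2 (-0.56, limma adjusted p = 0.19). The lines differed with shCtrl for 4 of 13 (42.1%), with FZD7 higher in MIA PaCa-2 and both LEF1 probes, which passed the filter through Capan-1 alone, and 1 CTNNB1 probe lower.

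**Figure D4:**
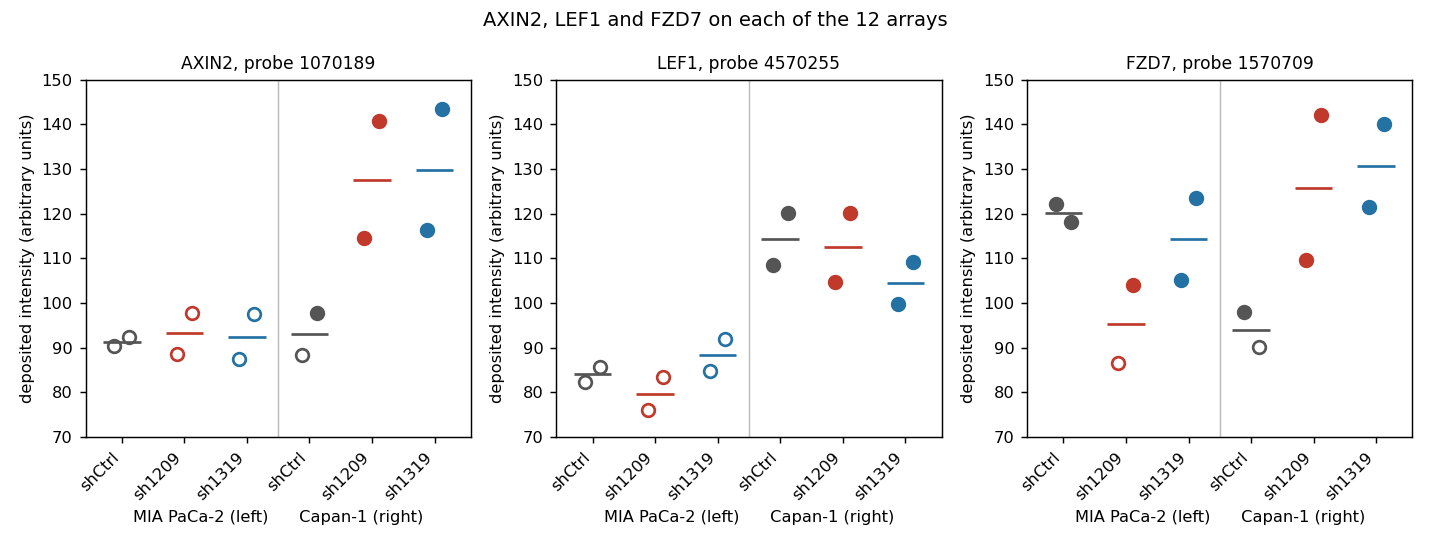
Deposited intensity (linear axis from 70, arbitrary units) of 1 probe each of AXIN2, LEF1 and FZD7, with 1 point per array, filled where detected, and a bar at the mean of 2 arrays. AXIN2 stood above all other groups in the 4 Capan-1 knockdown arrays (114.6 to 143.5). FZD7 in MIA PaCa-2 was lower with sh1209 (86.5 and 104.1) than with shCtrl, and LEF1 was detected in Capan-1 alone.

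A list of 94 other WNT pathway genes put these members in context. All 94 had a probe, 147 probes in all, and 85 probes of 62 genes passed the filter. Over both hairpins, 19 of 85 probes were called in MIA PaCa-2 (13 higher, 6 lower) and 19 in Capan-1 (12 higher, 7 lower), 22.4% in each line beside 21.2% and 16.5% of all tested probes. The change differed between the lines for 27 of 85, 31.8% beside 14.4%, and for 20 of 62 when 1 probe stood for each gene. In Capan-1 the balance of directions over the array rested on the scaling: 48.9% of called probes were higher with quantile normalization and 85.7% with median scaling, which moved the median of all probes from 0.00 to 0.10. In MIA PaCa-2 the corresponding shares were 50.1% and 61.5%, and for the difference between the lines 50.4% and 31.7%.

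Among secreted inhibitors, SFRP1 fell in MIA PaCa-2. SFRP1, which binds WNT ligands outside the cell, read 195.7 and 177 with shCtrl and 85.4 to 92.6 on the 4 knockdown arrays, none of which detected it. Its level was at least 5.27-fold lower for sh1209, and for sh1319 at least 5.13-fold lower (measured log2 difference -2.75 over both hairpins). In Capan-1 it was not detected on any array. The SFRP1 probe was detected only on the 2 MIA PaCa-2 shCtrl arrays and passed the filter through that group alone, so it left the tested set when either was omitted. With no filter the adjusted p over all probes was 2.5e-08 by limma.

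Capan-1 instead showed a rise of SOSTDC1, an antagonist of BMP and WNT signalling, over both hairpins (0.92, limma adjusted p = 0.0025). The rise was called with sh1319 and not with sh1209 (0.425, limma adjusted p = 0.26 with no filter). SOSTDC1 read 88.6 and 96.2 with shCtrl, where it was not detected, 105.8 and 105.3 with sh1209, and 145.3 and 151.6 with sh1319, at least 2.50-fold higher with sh1319 (limma adjusted p = 0.00054, and 0.0014 with no filter, which the probe passed mainly through these 4 knockdown arrays). APCDD1, a membrane-bound WNT inhibitor, rose over both hairpins by 0.76 (limma adjusted p = 0.014), mainly with sh1319 (1.09, limma adjusted p = 0.0055), and these calls were lost without Capan-1 shCtrl replicate 2 (0.46 and 0.79, limma adjusted p = 0.21 and 0.056). Of the 7 inhibitor probes, MIA PaCa-2 had 1 call, that of SFRP1 (14.3% beside 21.2% of all tested probes). Capan-1 had 3 (42.9% beside 16.5%), of which 2 were higher and 1 lower. SFRP1 was among the 7 only through MIA PaCa-2 shCtrl, and SOSTDC1 mainly through the Capan-1 knockdown arrays. These shares therefore rest in part on the filter.

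WLS, listed on the array as GPR177, is the carrier that takes WNT proteins to the cell surface. Among the ligands and their transport, WLS made up every call in MIA PaCa-2. These were 5 of 13 probes, 38.5% beside 21.2% of all tested probes. Probe 6940280 read 115 and 114.5 with shCtrl in MIA PaCa-2, 204 and 234 with sh1209, and 154 and 179 with sh1319. It rose by 1.32 over both hairpins (limma adjusted p = 2.3e-06), and 4 further WLS probes rose by 1.09, 1.01, 0.83 and 0.64 (limma adjusted p = 5.8e-05, 0.00065, 0.00077 and 0.0093). In Capan-1 it read 243 and 267, 229.9 and 278, and 202 and 228, and fell by 0.51 (limma adjusted p = 0.0037), a call that was lost with median scaling (-0.24, limma adjusted p = 0.45). Other WLS probes had these mean log2 levels in Capan-1 with shCtrl, sh1209 and sh1319. Probe 4250711 had 8.29, 8.28 and 7.79, probe 6130136 had 6.64, 6.35 and 5.94, and probe 1570441 had 5.96, 5.79 and 5.34. Of the 13 ligand and transport probes, 2 were called in Capan-1, both lower, 15.4% beside 16.5% of all tested probes. The 5 WLS probes report 1 gene and are not independent.

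Receptors had 7 of 20 probes called in each line, 35% beside 21.2% (MIA PaCa-2) and 16.5% (Capan-1) of all tested probes. In MIA PaCa-2, FZD2 rose from 122 and 112 to between 168.5 and 235 (1.42, limma adjusted p = 4.5e-05) and FZD8 from 99.1 and 102 to between 128.5 and 153 (1.22, limma adjusted p = 1.1e-05). FZD4 fell from 151 and 133 to between 97.9 and 111 (-1.28, limma adjusted p = 2.6e-05), and KREMEN2, a receptor that pairs with DKK1 to remove LRP6, fell from 133 and 125 to between 97.5 and 120.3 (-1.04, limma adjusted p = 0.0013). ROR1, a receptor for WNT5A, rose with sh1319 alone, at least 2.29-fold from an undetected level (limma adjusted p = 1.6e-05), while with sh1209 it was not detected.

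Capan-1 shared the direction of FZD2 (0.71, limma adjusted p = 0.007, lost without shCtrl replicate 2 at 0.60, limma adjusted p = 0.092) and of LRP5. LRP5, the relative of LRP6, read 406 and 509 with shCtrl in Capan-1 and 638 to 1078 with the FAK hairpins by probe 630066, a rise of 0.70 (limma adjusted p = 0.0025), and rose by 0.77 in MIA PaCa-2 (limma adjusted p = 9e-04). Its other probe, 5310767, rose by 0.60 in Capan-1 (limma adjusted p = 0.0021) and gave -0.17 in MIA PaCa-2 (limma adjusted p = 0.29). LGR4, the R-spondin receptor, fell in Capan-1 by 0.86 (limma adjusted p = 0.0011) and was not detected in MIA PaCa-2, so that it passed the filter through Capan-1 alone (limma adjusted p = 0.0017 with no filter). FZD6 fell in Capan-1 by 0.61 (limma adjusted p = 0.042), a call that was lost without any 1 of the 6 Capan-1 arrays (-0.54 to -0.68).

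In the cytoplasm, DVL3, a relay protein below Frizzled, read 108.8 and 112.9 with shCtrl in Capan-1 and 128.4 to 224 with the FAK hairpins, and rose by 0.96 (limma adjusted p = 0.0025). CSNK1E, the kinase that activates it, rose by 0.63 (limma adjusted p = 0.013), a call lost without shCtrl replicate 2 (0.46, limma adjusted p = 0.17), and its other 2 probes gave 0.26 and 0.07 with no call. These were the 2 calls among 19 relay and destruction complex probes in Capan-1 (10.5% beside 16.5% of all tested probes). In MIA PaCa-2 1 was made (5.26% beside 21.2%). Nuclear partners had 2 calls of 15 in MIA PaCa-2 (13.3% beside 21.2%) and 1 in Capan-1 (6.67% beside 16.5%).

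Common β-catenin targets went both ways in Capan-1. TNFRSF19 rose from 114 and 127 with shCtrl to between 171 and 198.5 (0.86, limma adjusted p = 0.00086), while MYC fell by 0.67 (limma adjusted p = 0.00067, lost with median scaling at -0.49, limma adjusted p = 0.075). MYC read 1082 and 1152 with shCtrl, 620.1 and 743 with sh1209, and 909 and 1175 with sh1319, so that the fall of 1.01 with sh1209 (limma adjusted p = 9.6e-05) stood apart and the sh1319 arrays overlapped shCtrl. The second MYC probe fell by 0.56 (limma adjusted p = 0.008). In Capan-1 4 of 11 target probes were called (36.4% beside 16.5% of all tested probes) and in MIA PaCa-2 3 (27.3% beside 21.2%).

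**Figure D5:**
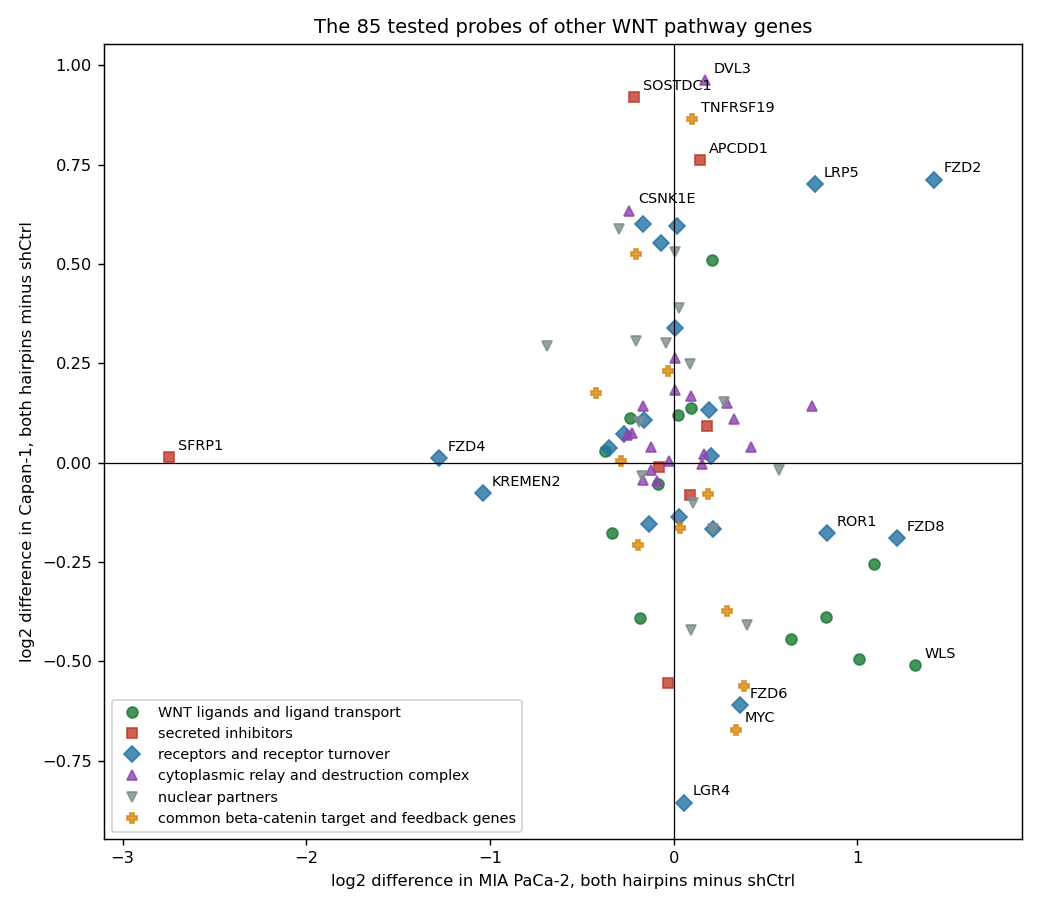
Log2 difference over both hairpins in MIA PaCa-2 (horizontal) and Capan-1 (vertical) for the 85 tested probes of other WNT pathway genes, with the shape giving the role. SFRP1 lay at -2.75 in MIA PaCa-2 and WLS probes to the right of 0 and below it, while DVL3, SOSTDC1 and TNFRSF19 lay high in Capan-1 alone. FZD2 and LRP5 probe 630066 were higher in both lines.

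Over the 12 arrays, the 5 genes whose log2 level most resembled DKK1 were CBX3 (Pearson r = 0.982), a probe whose name is held as a date (0.963), LOC653972 (0.955), BRI3BP (0.954) and HECTD2 (0.939), of 24207 probes compared. CBX3 encodes a chromatin protein of the HP1 family. Relative to shCtrl its log2 level moved by -1.28 (sh1209) and -0.71 (sh1319) for MIA PaCa-2, and for Capan-1 by -0.46 and -0.07, the same order of groups as DKK1. The arrays share groups and hairpins, so that r describes a pattern over 6 groups, and 34 probes had r over 0.9. Of the members, LEF1 probe 4570255 (0.555) and TCF7L2 (0.551) were the most alike and DKK3 (-0.558) the least.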

How the data were processed

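RNA (500 ng per sample) was hybridised to 12 arrays, and the authors deposited 1 table of non-normalized probe intensity with a detection p-value per array, exported from GenomeStudio 2011.1 per the submitters' processing notes. The table held 47320 rows, of which 92 were control probes, and the lowest intensity was 66.6.

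Background was corrected with limma 3.58.1 in R 4.3.3 (normexp from the detection p-values, offset 16), control probes were dropped, and log2 values were quantile normalized. Probes with a detection p under 0.05 on at least 2 of 12 arrays were kept, 24207 of 47228 (51.3%). A fit of 6 group means left 6 residual degrees of freedom, and 11 comparisons were tested with moderated statistics and Benjamini-Hochberg adjustment within each, at a threshold of 0.05. Where a gene was undetected on every array of a group, the fold is a bound set by the dimmest detected probe. The number of arrays limits the precision. When 200 of 24207 probes were given a log2 shift of 1 in a simulation, the test found 83.5% over both hairpins in MIA PaCa-2, and 57.5% for the difference between lines. The simulated noise was normal and independent, and both hairpins shifted alike. In the data 21.2% of probes were called over both hairpins in MIA PaCa-2, so these rates need not hold for the members.

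The members and lists were chosen with earlier results of these data known. Named from the list of other WNT genes were up to 10 probes per line with the largest called change over both hairpins, and the 5 genes most correlated with DKK1; second probes of such genes were added after their values were seen. Gene symbols are those of the array. Promoters came from RefSeq (GRCh38.p14). Replicate numbers were checked for pairing over 15 pairs of groups, with correlations of -0.06 to 0.16 and 1 over 0.1, and were not used as pairs. Alternatives covered background correction, scaling, filter, array weights, a replicate block, 1 line at a time, the plain test of the methods and leaving out each array.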

Additional observations from a re-analysis of the deposited data

Results flagged for a closer look

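The change over both hairpins differed between the lines (MIA PaCa-2 minus Capan-1, log2, limma adjusted p) for 3 members. The difference was -0.932 for AXIN2 (adjusted p = 0.0035), -1.66 for FZD7 probe 1570709 (0.0018) and 0.459 for LEF1 probe 4570255 (0.044), the last of which was lost when any 1 array was left out. LEF1 was detected in Capan-1 alone, so a fall in MIA PaCa-2 could not be seen. The AXIN2 probe also passed the filter through Capan-1 arrays alone, mainly those with a FAK hairpin. With no filter its adjusted p by limma was 0.0043. A change of AXIN2 below the detection limit could not be seen in MIA PaCa-2.

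The probes of other WNT genes below had been picked for a large called change within a line, a choice that favours a difference between the lines. Among secreted inhibitors and ligand transport, SFRP1 differed by -2.76 (limma adjusted p = 5.2e-07 with no filter). Its probe passed the filter only through the MIA PaCa-2 shCtrl arrays. SFRP1 was not detected on any Capan-1 array, so a fall there could not be seen. SOSTDC1 differed by -1.13 (0.0066, and 0.013 by limma with no filter). Its probe passed the filter mainly through the Capan-1 knockdown arrays. Of the probes of WLS (array name GPR177), 4 differed, by 1.83 (4.5e-06), 1.34 (0.00028), 1.51 (8e-04) and 1.22 (0.001).

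Among receptors, FZD4 differed by -1.29 (0.00056), FZD8 by 1.41 (8.7e-05), ROR1 by 1.01 (0.0031) and LGR4 by 0.913 (0.0069). LGR4 was not detected on any MIA PaCa-2 array, so a fall there could not be seen. The ROR1 and LGR4 differences were lost with median scaling (0.79 and 0.71, limma adjusted p = 0.059 and 0.094). KREMEN2 differed by -0.963 (0.024), lost without MIA PaCa-2 shCtrl replicate 1 (-0.89, limma adjusted p = 0.082) or Capan-1 shCtrl replicate 1 (-0.81, limma adjusted p = 0.11). FZD2 differed by 0.709 (0.044) and FZD6 by 0.973 (0.028), and both were lost without several single arrays (limma adjusted p up to 0.17 and 0.11).

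Of relay proteins and targets, DVL3 differed by -0.793 (0.046), lost without several single arrays (limma adjusted p up to 0.14), and MYC by 1.01 (0.00046). TNFRSF19 differed by -0.764 (0.015), lost without Capan-1 shCtrl replicate 1 (-0.68, limma adjusted p = 0.076). CSNK1E differed by -0.878 (0.017), lost without MIA PaCa-2 shCtrl replicate 2 (limma adjusted p = 0.066) or Capan-1 shCtrl replicate 2 (limma adjusted p = 0.089).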

How the results depend on the processing

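Over 298 log2 differences and their alternatives, 4108 values kept their side of the threshold or, untested, moved by less than 1 SD, 272 fell short of it, 54 newly passed it, 38 untested values moved, and 0 called values reversed. Among the 4108, 133 that were not called turned sign, such as DKK1 probe 4880609 with sh1319 in Capan-1, from -0.03 to 0.11 with median scaling. Counts between hairpins and between lines with shCtrl are over all 10 members, DKK1 included, and the others leave DKK1 out. With the methods' plain test and no adjustment, calls of members other than DKK1 went from 1 to 0 for sh1209 and for both hairpins in MIA PaCa-2. For sh1209 in Capan-1 they went from 2 to 1. Between hairpins in Capan-1, with DKK1 included, the count went from 1 to 2. With Benjamini-Hochberg adjustment that test left 0 members in each comparison of hairpins with shCtrl within a line. It also left 0 members between hairpins and 1 between lines with shCtrl. Of the other WNT probes over both hairpins it left 3 for MIA PaCa-2 and 0 for Capan-1. Within a line the adjusted plain test left few of all 24207 tested probes. Against shCtrl it left 1 (sh1209) and 4 (sh1319) for MIA PaCa-2, and 0 with either hairpin for Capan-1. Over both hairpins the numbers were 319 (MIA PaCa-2) and 90 (Capan-1), and between hairpins 1 and 2. Between lines with shCtrl 3905 were left. The calls over both lines went from 2 to 1 without background correction and with median scaling. Between hairpins in MIA PaCa-2 calls went from 2 to 1 with median scaling, no filter or only MIA PaCa-2 arrays, and in Capan-1 from 1 to 2 with no filter or a stricter one. Leaving out 1 array gave 1 to 1 and 0 to 1 members for sh1209 and sh1319 in MIA PaCa-2, 1 to 2 and 2 to 3 in Capan-1, 0 to 1 and 1 to 3 over both hairpins, 1 to 2 over both lines, 2 to 2 for the difference between lines, 1 to 2 and 1 to 1 between hairpins, and 3 to 4 between lines with shCtrl. For the other WNT probes it gave 15 to 20 in MIA PaCa-2, 12 to 20 in Capan-1 and 18 to 27 for the difference between lines. Over all alternatives, the plain test included, the lowest count by role over both hairpins was 0, except 2 for receptors in MIA PaCa-2. The replicate block changed no count of members and moved all calls over both hairpins from 5126 to 5043 in MIA PaCa-2 and from 3986 to 3859 in Capan-1. Signal near background limits AXIN2, FZD7, LEF1 and most of the list. The cause of these shifts was not tested.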

Other observations

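Among the 85 tested probes of other WNT pathway genes, the 2 FAK hairpins differed in MIA PaCa-2 for 19 (16 higher with sh1209 and 3 lower) and in Capan-1 for 7 (4 higher and 3 lower), 22.4% and 8.24% beside 22.6% and 11.3% of all tested probes. With shCtrl the lines differed for 35 (20 higher in MIA PaCa-2 and 15 lower), 41.2% beside 42.1%.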
